A study of Glycine max with 12 samples.

Results

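Biological repeat 3 of this soybean seed coat series held 68 genes, of 56044 in the table, whose RNA was lower than in repeats 1 and 2 in every group of libraries. The genes were chosen by that difference: the model with the longest cDNA stood for each gene, and in each of the 4 groups its log2(RPKM + 1) in repeat 3 had to lie at least 1 below repeat 1 and at least 1 below repeat 2. RPKM scales the sequencing hits of a model by its length and by the depth of the library. At most 200 genes were to be kept, and since 68 met the condition all were kept. All 68 also reached the level required for testing, 1 RPKM in 3 or more of the 12 libraries, as did 30775 genes in total. The opposite condition, repeat 3 at least 1 above both other repeats in every group, was met by 8 genes. Because repeat 3 against repeats 1 and 2 is what selected the 68 genes, every value of that difference below is a description and carries no test.

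The 12 libraries were made from polyadenylated RNA of freeze-dried immature seed coats of Glycine max, taken from greenhouse plants at 100 to 200 mg of whole seed fresh weight. Clark 8 (PI 547450) carries the i-k and K1 alleles and Clark 18a (PI 547439) the i-i and k1 alleles, so the lines differ at both the I and the K1 locus, and any difference between them cannot be assigned to either. From each line the part of the coat that would become the black saddle and the part that would become the yellow sections were dissected apart, which gave 4 groups with 3 biological repeats each. The labels do not say whether the repeats came from separate plants or how many seeds were pooled. By their library numbers, repeats 1 and 2 of Clark 18a ran from 54 to 57 and those of Clark 8 from 72 to 75, while the 4 libraries of repeat 3, of both lines, followed each other in a later run of numbers. The summed hits recovered from the table ranged from 83123127 to 192296346 per library, with 83123127 to 89505760 in the 4 libraries of repeat 3. Biological repeat 3 and this later set of libraries therefore cannot be told apart.

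Saddle patterns of soybean seed coats depend on the I locus, a cluster of chalcone synthase genes from which small RNAs silence pigment synthesis, and on the K1 locus, which encodes an Argonaute protein that carries small RNAs. The seed coat is maternal tissue around the embryo, and it lays down flavonoid pigments while it supplies the growing seed. Since no table used here pairs the identifiers of the 68 genes with names, they are given by identifier, without a function. For the same reason the labelled tissue could not be checked against marker genes. In a bulk sample, fewer cells that express a gene and less RNA per cell cannot be told apart.

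The 68 genes fell into a cluster at 1 end of chromosome 13 and a scattered remainder. In the order of the gene identifiers, 23 of them lay between gene numbers 112 and 254 of the 3730 genes listed on chromosome 13, a stretch of 143 genes of which 85 were tested. The other 45 lay on 16 further chromosomes and 1 unplaced scaffold, with 6 on chromosome 14, 5 on chromosome 9 and at most 4 on any other. The stretch was delimited by its first and last member after the members were known.

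Summed over the 23 genes of the stretch, the level was 3176, 4372 and 546 RPKM in repeats 1, 2 and 3 of the Clark 8 black saddle. It was 2086, 1961 and 279 RPKM in the Clark 8 yellow region. The Clark 18a sums were 1464, 2012 and 329 RPKM in the black saddle and 1757, 1631 and 197 RPKM in the yellow region. Repeat 3 was the low library of each group by several times, while repeats 1 and 2 lay much nearer to each other. The highest sum in repeat 3, that of the Clark 8 black saddle, was in the group whose other repeats were highest.

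Summed over the 45 scattered genes, the level was 1074, 1090 and 167 RPKM in repeats 1, 2 and 3 of the Clark 8 black saddle, and 984, 818 and 156 RPKM in its yellow region. In Clark 18a it was 1761, 1693 and 146 RPKM in the black saddle and 1586, 1526 and 163 RPKM in the yellow region. Glyma.04G099500 gave much of the difference between the lines in repeats 1 and 2: without it the sums of the other 44 genes were 1040 and 1050 RPKM in the Clark 8 black saddle, 1189 and 1086 RPKM in the Clark 18a black saddle, 956 and 781 RPKM in the Clark 8 yellow region and 1042 and 1011 RPKM in the Clark 18a yellow region. The 4 libraries of repeat 3 spanned 146 to 167 RPKM over both lines. Of the hits summed over the longest models, the 68 genes took 0.424% to 0.841% in the 8 libraries of repeats 1 and 2, and 0.0596% to 0.134% in repeat 3.

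**Figure D1:**
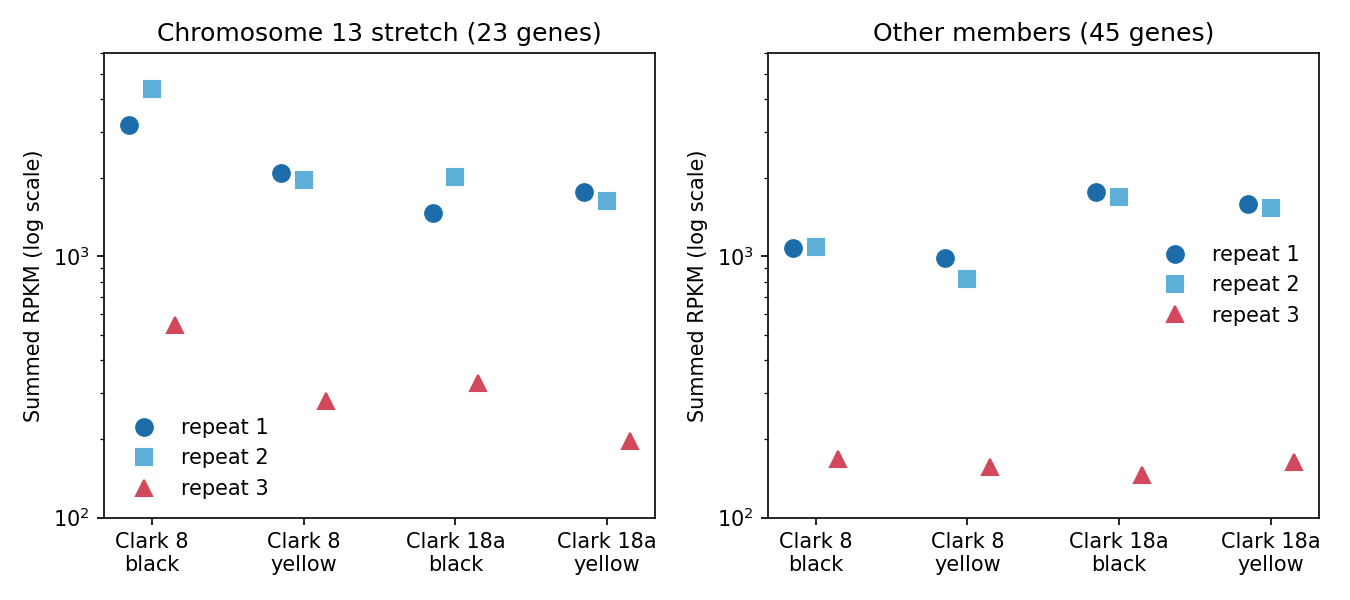
RPKM summed over the 23 genes of the chromosome 13 stretch (left) and over the 45 other genes (right), on a log axis, for each library of the 4 groups; circles, squares and triangles are repeats 1, 2 and 3. The triangles lie below the other points in every group, from 197 to 546 RPKM on the left and from 146 to 167 RPKM on the right.

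The mean deficit, the mean over groups of log2(RPKM + 1) in repeats 1 and 2 minus that in repeat 3, ranged from 1.17 to 6.71 over the 68 genes, with a median of 2.02. As a plain ratio of mean RPKM, repeats 1 and 2 exceeded repeat 3 by a median of 7.08 times, from 2.85 to 830 times. Over all 30775 tested genes the median of the mean deficit was 0.02. Repeats 1 and 2 differed from each other by a median of 0.18 on the log2 scale in the 68 genes and 0.16 in all tested genes.

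**Figure D2:**
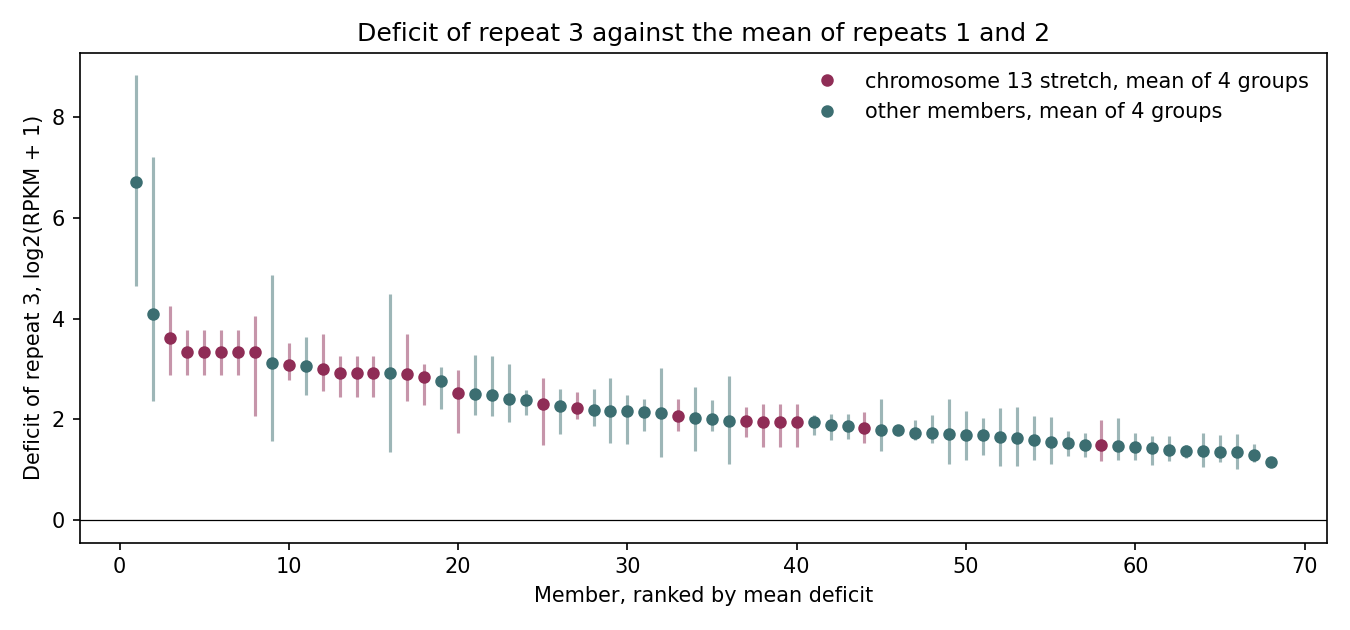
Deficit of repeat 3 in log2(RPKM + 1) for the 68 genes, ranked by their mean over the 4 groups; points are the mean and vertical lines run from the lowest to the highest of the 4 group values, with the chromosome 13 stretch in purple and other genes in green. The first gene has a mean of 6.71 and the last of 1.17, and the lines are long for a few of the scattered genes.

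Glyma.04G099500, a model of 549 nt on chromosome 4, had the largest deficit. Its level in repeats 1, 2 and 3 was 34.3, 40.2 and 0.526 RPKM in the Clark 8 black saddle and 28.4, 37.8 and 0.342 RPKM in the Clark 8 yellow region. The Clark 18a levels were 571, 607 and 0.299 RPKM in the black saddle and 544, 515 and 0.265 RPKM in the yellow region. In repeats 1 and 2 the gene was thus high in Clark 18a and far lower in Clark 8, and in repeat 3 it was below 1 RPKM in both lines, with 13 to 24 hits per library. Its ratio of repeats 1 and 2 to repeat 3 was 70.8 and 96.7 in the 2 Clark 8 groups, and 1969 and 2002 in the 2 Clark 18a groups.

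Glyma.14G052800, of 156 nt, came second with a mean deficit of 4.09. Its level was 165, 143 and 6.63 RPKM in the Clark 8 black saddle and 226, 157 and 33.4 RPKM in the Clark 8 yellow region. In Clark 18a it was 141, 154 and 0 RPKM in the black saddle and 138, 175 and 29.4 RPKM in the yellow region. In repeat 3 the black saddle was below the yellow region by 2.17 in Clark 8 and 4.92 in Clark 18a on the log2 scale. Black saddle minus yellow was -0.45 and 0.04 in repeat 1 of Clark 8 and Clark 18a, and -0.13 and -0.18 in repeat 2. The 0 in Clark 18a stands against a limit of 0.226 RPKM that a count of 0 allows (3 hits in that library), so the level was at least 655-fold lower there than the mean of 148 RPKM in repeats 1 and 2.

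Glyma.07G120600, of 237 nt, had a mean deficit of 3.13, the largest of the scattered genes after these. Its level was 7.41, 9.04 and 1.02 RPKM in the Clark 8 black saddle and 5.22, 7.12 and 1.39 RPKM in the Clark 8 yellow region. In Clark 18a it was 43.6, 67.4 and 0.891 RPKM in the black saddle and 41.1, 46.9 and 2.07 RPKM in the yellow region. As with Glyma.04G099500, Clark 18a was the higher line in repeats 1 and 2, and the 4 libraries of repeat 3 were all near 1 or 2 RPKM.

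The remaining genes among the 10 largest deficits all lay in the chromosome 13 stretch. Glyma.13G023200, of 279 nt and with a mean deficit of 3.62, stood at 260, 349 and 20.3 RPKM in the Clark 8 black saddle and at 114, 102 and 8.58 RPKM in the Clark 8 yellow region. In Clark 18a it stood at 77.0, 161.1 and 14.3 RPKM in the black saddle and 93.7, 105 and 4.25 RPKM in the yellow region. It was highest in the Clark 8 black saddle and lowest in repeat 3 of every group.

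Glyma.13G016100, Glyma.13G017300, Glyma.13G022100 and Glyma.13G024300, all of 252 nt, had the same value as one another in each of the 12 libraries and a mean deficit of 3.34. Each was listed at 92.8, 136 and 14.4 RPKM in the Clark 8 black saddle and 74.7, 75.1 and 7.68 RPKM in the Clark 8 yellow region. In Clark 18a each was listed at 103, 140 and 9.07 RPKM in the black saddle and 130, 111 and 7.89 RPKM in the yellow region. In repeats 1 and 2 of the yellow region these copies were higher in Clark 18a than in Clark 8.

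Glyma.13G011600, of 243 nt and with a mean deficit of 3.34, was the highest of the 23 members of the stretch by mean RPKM over repeats 1 and 2, at 487, 650 and 45.2 RPKM in the Clark 8 black saddle. It was at 203, 182 and 10.7 RPKM in the Clark 8 yellow region, at 72.6, 143 and 23.6 RPKM in the Clark 18a black saddle and at 84.6, 91.3 and 6.11 RPKM in the Clark 18a yellow region. Its neighbour Glyma.13G011200, of 654 nt, was also highest in the Clark 8 black saddle, at a lower level of 72.2, 100 and 10.4 RPKM. Glyma.13G015700, of 2007 nt and with a mean deficit of 3.08, was more even across groups, at 86.6, 118 and 12.4 RPKM in the Clark 8 black saddle and 65.6, 60.9 and 4.59 RPKM in the Clark 18a yellow region.

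The second highest of the 68 genes after Glyma.04G099500 by mean RPKM over repeats 1 and 2 was Glyma.U007300, of 456 nt, on an unplaced scaffold. It stood at 344, 473 and 56.8 RPKM in the Clark 8 black saddle and 257, 239 and 29.9 RPKM in the Clark 8 yellow region. The Clark 18a levels were 168, 197 and 38.7 RPKM in the black saddle and 196, 183 and 22.1 RPKM in the yellow region. This pattern followed the chromosome 13 stretch closely: its Pearson r with the mean log2(RPKM + 1) of the 23 genes was 0.997 over the 12 libraries, which share the low values of repeat 3 by selection.

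Several of the genes could not be told apart by their values. Besides the 4 models of 252 nt, Glyma.13G012900, Glyma.13G020000 and Glyma.13G020900 (1056 nt) shared 1 set of values, and Glyma.13G013900, Glyma.13G014200 and Glyma.13G019900 (555 nt) another. Glyma.11G114900 and Glyma.12G040700, both of 126 nt, differed by at most 1.89% in any library, and Glyma.14G130500 and Glyma.14G131800, both of 219 nt, by at most 10.3%. The 68 genes thus carried 61 distinct profiles of values, and the 23 of the stretch carried 16. How the authors counted a read that matches several models is not given in the sources used here, so the level of each copy in these groups is uncertain and the copies are not separate evidence.

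The longest run of members whose identifiers lay within 5 gene numbers of each other held Glyma.13G015300, Glyma.13G015700, Glyma.13G015800, Glyma.13G016000 and Glyma.13G016100. In the Clark 8 black saddle the other members of this run stood at 88.0, 117 and 25.1 RPKM for Glyma.13G015300 (3357 nt), at 160, 229 and 31.1 RPKM for Glyma.13G015800 (2103 nt) and at 154, 220 and 34.9 RPKM for Glyma.13G016000 (2569 nt). The next runs held 3 genes each, from Glyma.13G013500 to Glyma.13G014200 and from Glyma.13G017100 to Glyma.13G017300. The genes of these runs are all members, so their shared low level in repeat 3 came from the selection. Their lengths ranged from 252 to 3639 nt. Outside chromosome 13 the runs were pairs, Glyma.01G072200 with Glyma.01G072600 and Glyma.09G108700 with Glyma.09G108900.

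The low level of repeat 3 in the stretch was not limited to the genes that met the condition. Among its 62 other tested genes, the median deficit was 1.48 in the Clark 8 black saddle, 1.39 in the Clark 8 yellow region, 0.20 in the Clark 18a black saddle and 1.20 in the Clark 18a yellow region, against 0.04, 0.02, 0.02 and -0.01 over all tested genes. Repeat 3 lay at least 1 below both other repeats in 36, 39, 5 and 32 of the 62 genes in these groups. Some of the 62 had the same deficits as another, such as Glyma.13G012800 and Glyma.13G013000, so these are fewer independent measurements than genes. The Clark 18a black saddle was therefore the group in which most of these neighbours missed the condition. On the rest of chromosome 13, the median of the mean deficit was 0.02 over 2070 tested genes.

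**Figure D3:**
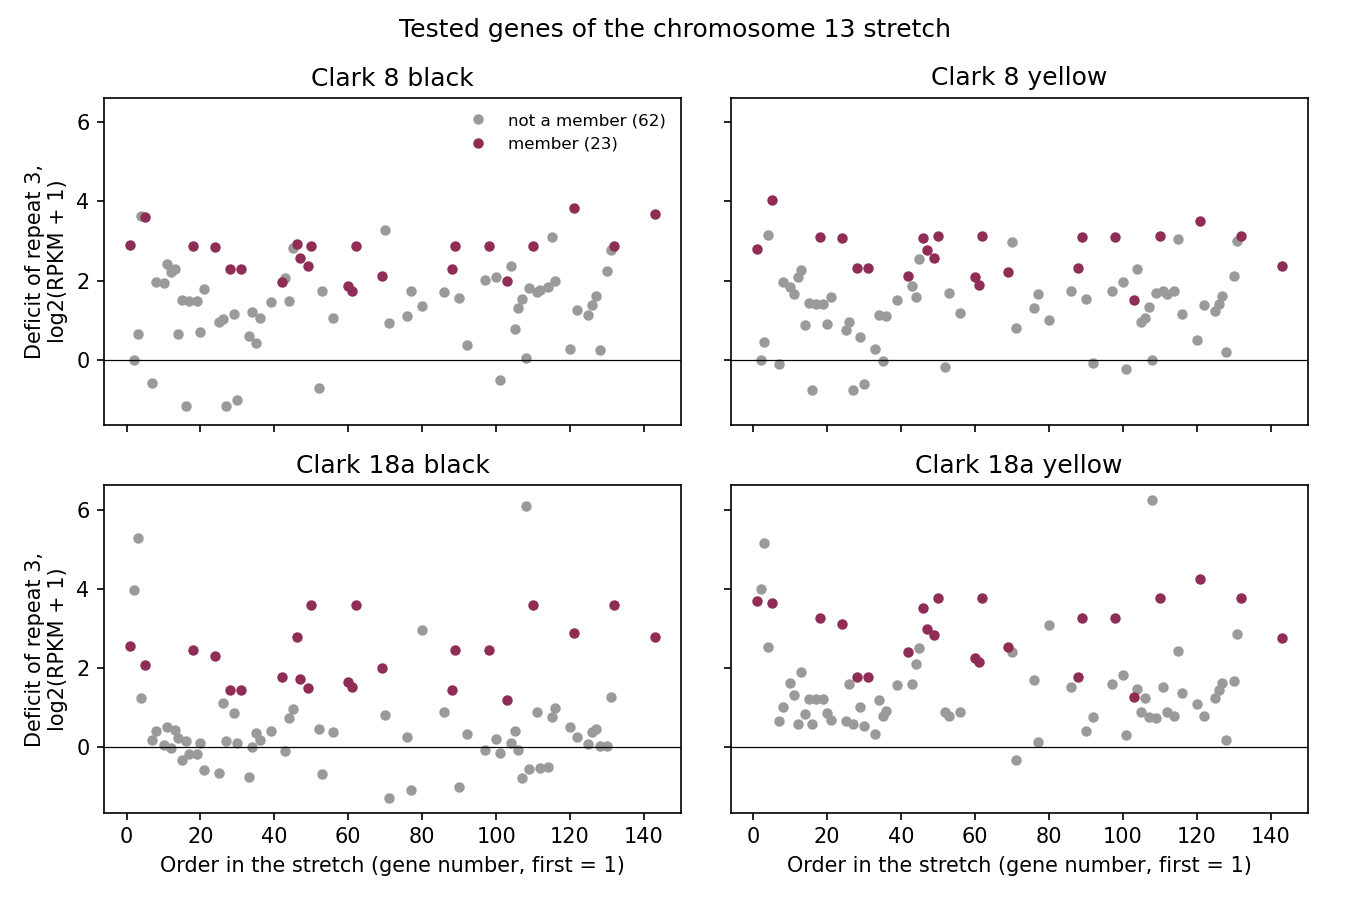
Deficit of repeat 3 in log2(RPKM + 1) for the 85 tested genes of the chromosome 13 stretch, in identifier order, with 1 panel per group; purple points are the 23 members and grey points the 62 other genes. Most grey points lie above 0 in 3 panels and around 0 in the Clark 18a black saddle, where their median is 0.20.

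In the reference table of the Glycine_max_v4.0 assembly, 406 of the 459 genes annotated as ribosomal RNA lay on chromosome 13, and no more than 94 of its 3076 protein-coding genes came before any of them. Arrays of ribosomal RNA genes form the nucleolus organizer of plant chromosomes, and their transcripts mostly lack a poly(A) tail. The build of the deposited table is not given in the sources used here and the reference table holds none of its identifiers, so whether the models of the stretch overlap ribosomal RNA sequence was not tested. No sequence of the 68 genes was used here.

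The 68 models were short and mostly lacked annotated untranslated regions, properties that the selection did not use directly. In 60 of 68 (88.2%) the cDNA length equalled the coding length, against 3279 of 30775 tested genes (10.7%). The median cDNA length was 459 nt, from 126 to 3639 nt, against 1728 nt in all tested genes, and 25 of 68 (36.8%) were shorter than 300 nt, against 1.99%. Only Glyma.10G018700 had more than 1 model (1.47%, against 37.8% of tested genes), and its other model missed the condition with a smallest margin of 0.92. The members of the stretch were longer than the others, with medians of 924 and 402 nt. The 8 genes with annotated untranslated regions were Glyma.13G011200, Glyma.13G016000, Glyma.14G175600, Glyma.12G082000, Glyma.17G220000, Glyma.07G140000, Glyma.10G018700 and Glyma.07G017800.

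Missing untranslated regions also went with a deficit among genes that did not meet the condition. Of the tested genes without annotated untranslated regions, the 3219 that were not members had a median deficit of 0.04 in both Clark 8 groups, 0.29 in the Clark 18a black saddle and 0.28 in the Clark 18a yellow region. Of those with annotated untranslated regions, the 27488 that were not members had medians of 0.04 and 0.02 in the Clark 8 groups and -0.01 and -0.03 in the Clark 18a groups. The 2 classes of model thus lay apart in Clark 18a and close together in Clark 8, with no test of this difference. Among the 8 genes that were higher in repeat 3 by the opposite condition, 5 lacked annotated untranslated regions and the median cDNA length was 297 nt, so short models were also common on that side. By length, with members included, the median mean deficit under 300 nt was 0.36 without annotated untranslated regions (575 genes) and 0.43 with them (38 genes). From 300 to 600 nt it was 0.28 and 0.13, and from 1500 to 2500 nt 0.10 and 0.02. In every range above 300 nt it was larger without them. The part of length and annotation in the deficit was not tested.

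Depth set a limit for the lowest values. The members had a median of 1207.5 hits per library in repeats 1 and 2 and 116 in repeat 3, and no member had fewer than 37 hits in any library of repeats 1 and 2. In repeat 3, 11 of the 68 genes had 3 hits or fewer in at least 1 library, and 3 were listed at 0 in 1 library each. Beside Glyma.14G052800 these were Glyma.16G115100 in the Clark 8 yellow region, at least 9.11-fold lower than its mean in repeats 1 and 2, and Glyma.07G079200 in the Clark 18a black saddle, at least 31.9-fold lower. No member was at 0 in all 4 libraries of repeat 3. Such limits cover counting error only.

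At the edge of the condition, the members with the smallest margins were Glyma.14G114500 (1.00), Glyma.14G131800 (1.01) and Glyma.06G247900 (1.01). The genes just outside were Glyma.03G093700 (0.997), Glyma.16G093200 (0.996) and Glyma.06G186900 (0.989). Glyma.14G114500 stood at 3.40, 3.51 and 0.990 RPKM in the Clark 8 black saddle, and Glyma.03G093700 at 1.60, 1.38 and 0.192 RPKM. Glyma.03G093700 had the larger mean deficit, 1.74 against 1.17, and stayed outside because of its low level in that group.

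The genes whose pattern over the 12 libraries was most like the mean of the 68, measured by Pearson r of log2(RPKM + 1), were Glyma.19G098000 (0.987), Glyma.17G198200 (0.976) and Glyma.09G020000 (0.971). Glyma.19G098000, of 600 nt and without annotated untranslated regions, stood at 5.38, 5.74 and 2.87 RPKM in the Clark 8 black saddle and at 5.71, 5.42 and 2.50 RPKM in the Clark 18a yellow region. Its mean deficit of 0.84 was too small for the condition. Between members, the median Pearson r was 0.959 within the stretch, 0.911 among the others and 0.805 between the stretch and the others. All these coefficients share the low repeat 3 that selected the genes.

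The deficit was also compared between the lines. In the 45 scattered genes the median deficit was 1.54 and 1.65 in the black saddle and yellow region of Clark 8, and 2.07 in both regions of Clark 18a. In the 23 genes of the stretch it was 2.88 and 2.80 in Clark 8, and 2.30 and 3.10 in Clark 18a. The deficit was larger in both Clark 18a groups than in both Clark 8 groups in 30 of the 45 scattered genes and in 4 of the 23 genes of the stretch. On plain ratios of RPKM, which the pseudocount does not compress at the lower levels of Clark 8, this held in 16 of the 45 and in 4 of the 23, so for the scattered genes the larger deficit in Clark 18a depended on the scale. These counts describe the selected genes and were not tested.

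The study's own comparisons, between regions and between lines, did not enter the selection and were tested across all 30775 genes with limma on log2(RPKM + 1), with p-values adjusted by the Benjamini-Hochberg method and calls at an adjusted p under 0.05. In the fit with 1 mean per group, limma called 0 of the 68 genes in any of the 5 contrasts, and 0 had an unadjusted p under 0.05. The background share of all tested genes called was 13.9% for black saddle against yellow in Clark 8, 15% in Clark 18a, 0.0812% for Clark 18a against Clark 8 in the black saddle, 0.413% in the yellow region and 0.0162% for the difference between the region differences. The selection placed repeat 3 far from repeats 1 and 2 in every group, so the spread against which these genes were judged was large by construction, and the 0 says nothing of the size of their differences. Same-numbered libraries deviated together, so a fit with the repeat as a block, which compares libraries of the same repeat, is given beside it.

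With the repeat as a block, 35 of the 68 genes differed between the black saddle and the yellow region of Clark 8. Of these, 30 were higher in the black saddle (44.1%, against a background of 16%) and 5 were lower (7.35%, against 21.2%). The higher ones were 22 of the 23 genes of the stretch, by 0.63 to 1.69 on the log2 scale with adjusted p from 0.00754 to 0.0252, and 8 of the 45 scattered genes, by 0.27 to 0.78. Only Glyma.13G021400 of the stretch did not pass (adjusted p = 0.148). Because 10 genes of the stretch shared 3 sets of values, these calls are fewer independent measurements than genes. The count was lowest without repeat 2, at 4 of the 68 genes, none of them in the stretch. Without repeat 1, 26 were called, and without repeat 3, 29. No share over all tested genes was computed for these fits, so the changes in count cannot be assigned to the members. The differences themselves moved less: without repeat 2, Glyma.13G011600 was at 1.62 (adjusted p = 0.0992), Glyma.13G011200 at 1.23 (adjusted p = 0.0921) and Glyma.13G023200 at 1.17 (adjusted p = 0.137, limma with the block).

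Glyma.13G011600 rose most in the Clark 8 black saddle, by 1.69 ± 0.34 (SE, adjusted p = 0.00967, limma with the block), from 203, 182 and 10.7 RPKM in the yellow region to 487, 650 and 45.2 RPKM. It was higher in the black saddle in each of the 3 repeats. Glyma.13G011200 rose by 1.43 ± 0.27 (adjusted p = 0.00754) and Glyma.13G023200 by 1.37 ± 0.31 (adjusted p = 0.0147). The genes that fell most were Glyma.07G140000, by 1.09 ± 0.14 (adjusted p = 0.00203), Glyma.18G136000, by 0.61 ± 0.08 (adjusted p = 0.00223), and Glyma.18G072000, by 0.54 ± 0.14 (adjusted p = 0.0218). Glyma.07G140000 stood at 5.33, 4.005 and 1.15 RPKM in the black saddle and 11.2, 12.9 and 2.89 RPKM in the yellow region, lower in the black saddle in each repeat. Glyma.18G072000 did not pass without repeat 1 or without repeat 2, at -0.47 and -0.61.

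In Clark 18a, 12 of the 68 genes differed between the regions with the block, 7 higher in the black saddle (10.3%, against a background of 19.8%) and 5 lower (7.35%, against 19.2%), and all were scattered genes. The count was 9, 4 and 15 without repeat 1, 2 and 3, again with no share over all tested genes computed. Glyma.08G327300 rose by 0.89 ± 0.11 (adjusted p = 0.00127), from 5.61, 9.37 and 1.20 RPKM in the yellow region to 13.9, 17.5 and 2.49 RPKM. Glyma.06G283700 rose by 0.87 ± 0.10 (adjusted p = 0.00105), and Glyma.12G040700, whose values are nearly those of Glyma.11G114900, by 0.56 ± 0.17 (adjusted p = 0.0374). Glyma.12G040700 was at 0.30 without repeat 1 and at 0.59 without repeat 2 and passed in neither case (adjusted p = 0.165 and 0.182, limma with the block). Glyma.16G082100 fell by 1.502 ± 0.27 (adjusted p = 0.00565), from 41.7, 43.1 and 4.97 RPKM to 12.6, 20.1 and 0.724 RPKM. Glyma.07G140000 fell by 0.68 ± 0.14 (adjusted p = 0.0113) and Glyma.06G287900 by 0.53 ± 0.12 (adjusted p = 0.0141). Without repeat 1 neither passed, at -0.63 and -0.61, and without repeat 2 Glyma.06G287900 did not pass, at -0.34. In both lines the block gave calls for 8 genes, 5 higher and 3 lower in the black saddle each time. The share of all tested genes called in both lines was not computed, so this count has no background. The shares of members called in Clark 18a lay below the background in both directions. The selection forced a low repeat 3 in every member, and log2(RPKM + 1) compresses differences at low levels. Low shares of called members in this fit therefore cannot be read as a trait of the members.

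The stretch moved between regions with the repeat. In Clark 8 its members were higher in the black saddle in 23, 23 and 22 of 23 genes in repeats 1, 2 and 3, with median plain ratios of 1.34, 1.92 and 1.87 over members with more than 3 hits in both libraries. In Clark 18a they were higher in 1, 23 and 23 of 23 genes, with median ratios of 0.848, 1.19 and 1.65. Repeat 1 of Clark 18a thus went the other way from repeats 2 and 3 in nearly all members at once. The other genes of the stretch summed to 6303, 8936 and 6467 RPKM in the Clark 18a black saddle, in repeats 1, 2 and 3. In the Clark 18a yellow region they summed to 7647, 7132 and 3842 RPKM, so repeat 1 was again the exception. In Clark 8 their sum was higher in the black saddle in every repeat. The difference between the region differences of the lines was below 0 in 23 of 23 members, with a median of -0.58, but none passed (lowest adjusted p = 0.437, limma with the block). Over the 68 genes the block called 0 for this difference, against a background of 0.00325%, with 8 at an unadjusted p under 0.05. The share of all tested genes at that unadjusted p was not computed.

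**Figure D4:**
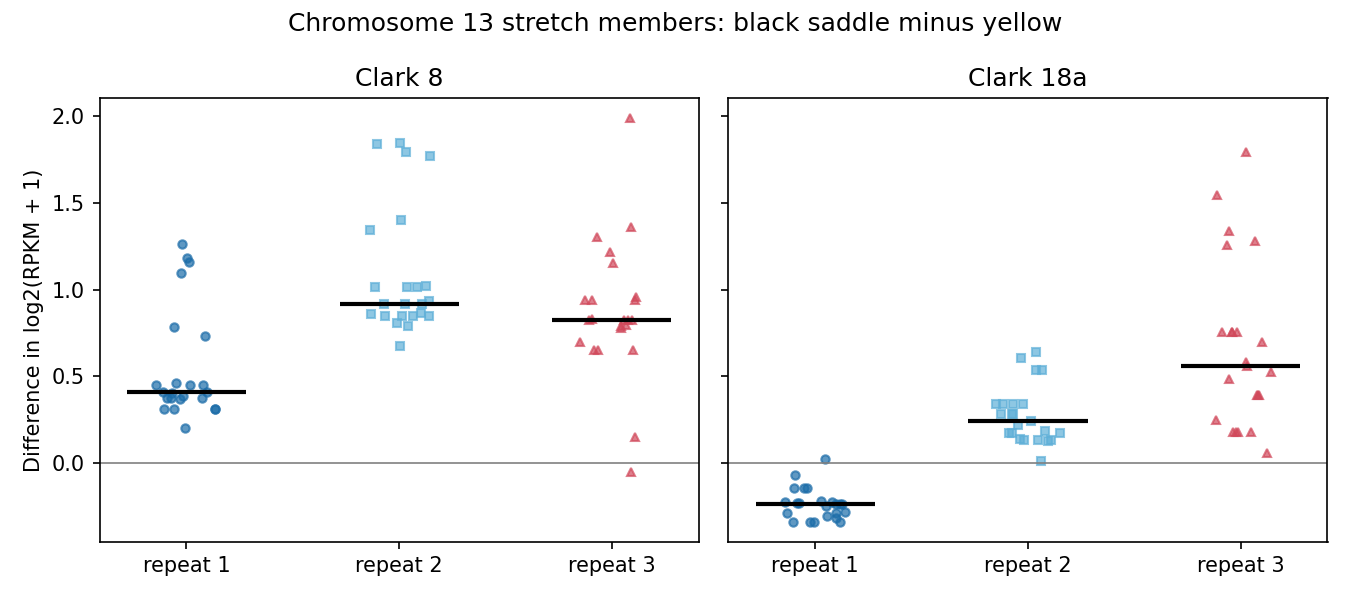
Black saddle minus yellow region in log2(RPKM + 1) within each repeat, for the 23 genes of the chromosome 13 stretch in Clark 8 (left) and Clark 18a (right); each point is a gene and the bar is the median. In Clark 8 nearly all points lie above 0, and in Clark 18a those of repeat 1 lie below 0 in 22 of 23 genes while those of repeats 2 and 3 lie above it.

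Between the lines, the block fit called 3 of the 68 genes in the black saddle, against a background of 0.169%. In the yellow region it called 0, against 0.676%. At an unadjusted p under 0.05 there were 49 and 28 members, for which no share of all tested genes was computed. The 3 called genes were Glyma.13G013900, Glyma.13G014200 and Glyma.13G019900, which share their values and count as 1 measurement. They stood at 211, 286 and 49.2 RPKM in Clark 8 and 62.4, 77.1 and 24.7 RPKM in Clark 18a, lower in Clark 18a by 1.53 ± 0.21 on the log2 scale (adjusted p = 0.0348, a log2 difference of -1.53). This call was lost without repeat 1 or without repeat 2, while the difference stayed at -1.42 and -1.35. Glyma.04G099500 did not pass in this fit, with differences of 2.56 in the black saddle (adjusted p = 0.353) and 2.62 in the yellow region (adjusted p = 0.152).

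When the 4 libraries of repeat 3 were left out, the line differences of repeats 1 and 2 passed in many members. In the black saddle 18 genes were higher in Clark 18a (26.5%, against a background of 3.07%) and 13 lower (19.1%, against 0.962%). In the yellow region 21 were higher (30.9%, against 6.26%) and 3 lower (4.41%, against 5.56%). All the higher genes were scattered ones, 18 of them called in both regions, a count for which no share of all tested genes was computed. Of the lower genes, 11 of the 13 in the black saddle and all 3 in the yellow region lay in the stretch. The members had a median of 19.3 RPKM in repeats 1 and 2, against 4.3 RPKM in all tested genes. The backgrounds were not matched for level. The largest difference was that of Glyma.04G099500, 3.95 ± 0.20 in the black saddle (adjusted p = 0.000168) and 3.97 ± 0.20 in the yellow region (adjusted p = 0.000147), followed by Glyma.16G115100, with 2.99 ± 0.18 and 3.13 ± 0.18, and Glyma.07G120600, with 2.59 ± 0.23 and 2.66 ± 0.23. In the same fit 9 members differed between regions in Clark 8, against a background of 14.1%, and 4 in Clark 18a, against 15.3%. The difference between the region differences gave 0 calls, against 0.00325%, with 20 members at an unadjusted p under 0.05. For that unadjusted count no share of all tested genes was computed. Repeats 1 and 2 of each line carry consecutive library numbers of their own, so line and set of libraries cannot be told apart here.

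In repeat 3, whose 4 libraries are numbered together, the median ratio between the lines was nearer to 1 in the scattered genes. The median plain ratio of Clark 18a to Clark 8 in the black saddle was 1.74, 1.70 and 1.18 in repeats 1, 2 and 3, over 45, 45 and 37 genes with more than 3 hits in both libraries. In the yellow region it was 1.59, 1.72 and 1.13, over 45, 45 and 39 genes. Single genes still differed in repeat 3, with ratios from 0.569 to 3.41 in the black saddle and from 0.676 to 1.62 in the yellow region, and Glyma.14G052800, at 6.63 RPKM in Clark 8 and 0 in Clark 18a in the black saddle, has no such ratio. In the black saddle 9 scattered genes exceeded 1 on the log2 scale in both repeats 1 and 2, and all 9 lay within 0.5 of 0 in repeat 3. In the yellow region this held for 7 of 7. The log2(RPKM + 1) scale compresses differences at the low levels of repeat 3, which the plain ratios do not. These counts therefore cannot show that the lines were alike in repeat 3. In the stretch the ratio was 0.513, 0.462 and 0.636 in the black saddle and 0.828, 0.916 and 0.719 in the yellow region, with medians below 1 in every repeat. Whether the change of the line ratio between repeats exceeds replicate error was not tested, since each line and region has 1 library of repeat 3.

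**Figure D5:**
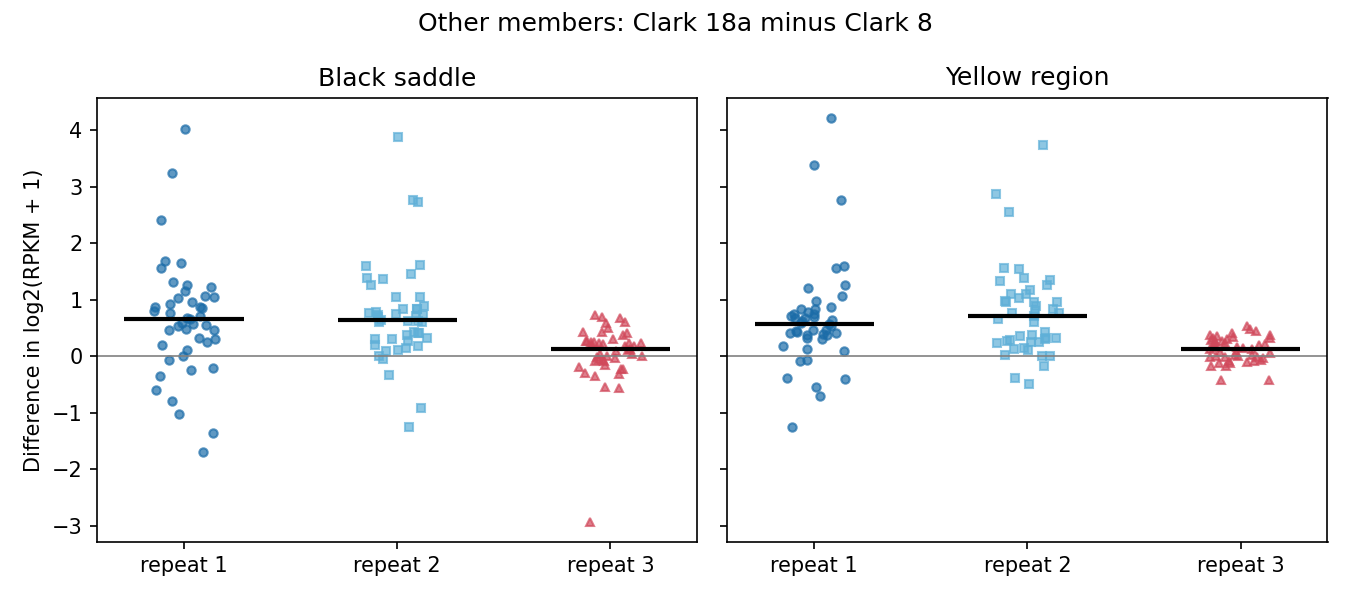
Clark 18a minus Clark 8 in log2(RPKM + 1) within each repeat, for the 45 scattered genes in the black saddle (left) and the yellow region (right); each point is a gene and the bar is the median. The medians lie at 0.65, 0.64 and 0.12 in the black saddle and at 0.56, 0.72 and 0.13 in the yellow region, and the point near -3 in repeat 3 is Glyma.14G052800, listed at 0 in Clark 18a.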

How the data were processed

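The authors deposited 1 table of RPKM values for 88647 transcript models, with coding and cDNA lengths, in 12 libraries; all 12 value columns were used. The aligner was Bowtie 1, per the submitters' processing notes. Not given in the sources used here were the genome build, annotation version, strandedness and handling of reads with several hits. RPKM times cDNA length gave whole multiples of 1 hit at low values in each library (within 0.05 of a hit), from which hits per library were recovered; hits shared by models may be counted more than once.

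Each gene was represented by its longest-cDNA model. Log2(RPKM + 1) of the 30775 tested genes was analysed by limma 3.58.1 under R 4.3.3 with an intensity trend and 1 mean per group, and p-values were two-sided and adjusted by the Benjamini-Hochberg method over all tested genes. Exact permutation of 3 against 3 libraries cannot give a p under 0.1. The procedure was tested on simulated data. P-values measure only the spread between these libraries.

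For region contrasts the block was the line and repeat, and for line contrasts the repeat number. The pairing came from the data, by the correlation of same-numbered libraries' deviations from their group means. It was 0.52 to 0.75 between regions of a line and 0.12 to 0.50 between lines within a region, over 0.1 for each pair. Between unlike regions of the lines it was 0.04 to 0.43. Deviations within a group cancel out, so a shift of repeat 3 shared by the groups also correlates repeats 1 and 2. Libraries of different number were not compared, so these values cannot show that repeats 1 and 2 match between lines.

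The members, lists and tests were chosen with earlier results of these data known. Genes named were the 10 with the largest mean deficit, the 5 highest in repeats 1 and 2, up to 3 called rises and falls per contrast, those at the edge of the condition, the longest runs and the most similar non-members; since no contrast had calls without the block, the rises and falls of the block fit were named, a choice made after seeing the data, as was the naming of genes with untranslated regions, at 0, or with line differences without repeat 3. Lists of cell type markers and pathways defined by gene names could not be used.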

Additional observations from a re-analysis of the deposited data

Results flagged for a closer look

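In Glyma.18G111300 and Glyma.14G114500 the difference between the black saddle and the yellow region had 1 sign in all 3 repeats of Clark 8 and the opposite sign in all 3 repeats of Clark 18a. In Glyma.18G111300 black saddle minus yellow was -0.36, -0.10 and -0.02 on the log2(RPKM + 1) scale in Clark 8 and 0.43, 0.49 and 0.19 in Clark 18a. The difference between the region differences was 0.53 (adjusted p = 0.289, limma with the repeat as a block). In Glyma.14G114500 black saddle minus yellow was -0.21, -0.03 and -0.21 in Clark 8 and 0.42, 0.05 and 0.16 in Clark 18a, a difference of 0.36 (adjusted p = 0.418). Neither passed the threshold. The 2 genes were singled out by these signs, after their values were seen.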

How the results depend on the processing

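The number of genes meeting the condition was 250 with a pseudocount of 0.1, 312 with a deficit of at least 0.5 and 30 with at least 1.5, and 90 to 113 when repeat 1 or repeat 2 was left out of the condition; it was 70 with RPKM summed over models and 65 with libraries scaled to 1 median, 64 of them the same genes. Without the block, 0 members were called under every other planned setting, each library left out in turn included, except without the repeat 3 libraries, where 9 and 4 were called between regions in Clark 8 and Clark 18a and 31 and 24 between lines in the black saddle and yellow region. The block was the line and repeat for region contrasts and the repeat number for line contrasts. With it, 35, 12 and 3 members were called between regions in Clark 8, in Clark 18a and between lines in the black saddle. In that paired fit, with 1 repeat left out (chosen after seeing the data), the counts ran from 4 to 29 between regions in Clark 8, from 4 to 15 in Clark 18a, from 0 to 35 between lines in the black saddle and from 0 to 26 in the yellow region, and stayed at 0 for the interaction. Calls between lines came without repeat 3, 35 and 26 of them, and 0 without repeat 1 or repeat 2. For these fits the share of all tested genes called was not computed, so the changes in count cannot be assigned to the members. Of single genes without the block, black saddle minus yellow in Clark 18a changed sign in Glyma.06G287900, to 0.16 without Clark 18a black saddle repeat 3 (range -1.32 to 0.16 over libraries left out), and in Glyma.12G040700, to -0.23 without black saddle repeat 1 and -0.29 without yellow repeat 3 (range -0.29 to 1.65). The cause was not tested. Of 15 single gene values followed, 13 had been chosen because they passed with the block. With the block, 8, 6 and 15 of the 15 passed when repeat 1, 2 or 3 was left out. An RPKM minimum of 5 left 58 members in the fit. Low hits in repeat 3 limit the deficits of the 11 genes with 3 hits or fewer.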
